A study of Mus musculus with 12 samples.

Results

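Chemokines are small secreted proteins that draw leukocytes along a gradient, and the chemokine receptors are the surface proteins that read it. The 55 genes described here are those whose symbol on the array follows the chemokine, chemokine receptor or atypical chemokine receptor nomenclature (Ccl, Cxcl, Cx3cl, Xcl, Ccr, Cxcr, Cx3cr, Xcr and Ackr with a number), out of 24477 genes measured. They comprise 34 ligands and 21 receptors, of which 17 signal in migrating cells and 4 are atypical receptors that bind and remove ligand. Expression was measured in laser-microdissected tongue epithelium of 12 male CBA mice, 1 array per mouse, on GeneChip Mouse Gene ST 2.0 arrays. Normal mucosa came from 3 untreated control mice aged 24, 12 and 20 weeks. Hyperplasia (20, 16 and 20 weeks), dysplasia (16, 24 and 16 weeks) and tumor (20, 16 and 24 weeks) came from 3 mice each, all of which had drunk 4-NQO (4-nitroquinoline oxide, an oral carcinogen) at 100 ug/mL over 8 weeks. All lesions were exposed and all normal mucosa was not, so carcinogen and stage cannot be told apart in any comparison with normal mucosa.

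In mucosal epithelium, keratinocytes make chemokines when they meet microbes, injury or cytokines, and resident immune and stromal cells make others. A chemokine is usually described by the cell that carries its receptor. CCR2 ligands draw monocytes, CXCR2 ligands draw neutrophils, CCR3 ligands draw eosinophils, and CXCR3 and CXCR6 ligands draw activated T and NK cells. CCR4 ligands draw T cells that home to skin and mucosa, and many chemokine genes lie side by side on the chromosome. By RefSeq gene order on GRCm38.p6, 34 of the 55 members lay in 9 runs of neighbouring members, with at most 3 other genes between them. Ccl2, Ccl7, Ccl11, Ccl12, Ccl8 and Ccl1 formed 1 run on chromosome 11, and Cxcl9, Cxcl10 and Cxcl11 another on chromosome 5.

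Values are log2 expression values, and levels are compared only within a gene. A member was counted as above background in a stage when all 3 arrays lay over the 95th percentile of 1356 olfactory and vomeronasal receptor genes on the same array, a line between 6.13 and 6.64. Keratinocyte markers averaged 11.64 to 12.12 in all 12 samples, but single markers changed. Krt4 ran from 13.11 to 13.30 in normal mucosa and from 9.03 to 11.37 in tumor, and Dsg3 from 10.25 to 10.61 and from 11.42 to 12.13. B and plasma cell markers passed the line on no array. Skeletal muscle markers averaged from 5.92 in tumor 3 to 10.73 in normal 1, so the share of muscle RNA differed between samples. Array medians lay between 6.16 and 6.35. A change in such tissue may reflect more cells of a type or more RNA per cell, and these cannot be told apart.

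By this rule 23 of the 55 members (41.8%) were above background in at least 1 stage, against 47.9% of all genes. The count was 35 with the 90th percentile as the line or with 2 of 3 arrays over it, and 8 with the 99th percentile. The share of all genes under these other lines was not counted. They were 14 ligands and 9 receptors. Normal mucosa had 12 of them, hyperplasia 17, dysplasia 20 and tumor 18. The share of all genes was also lowest for normal mucosa, at 38.8%, against 42.1%, 39.8% and 43.3% for the lesion stages, listed as before. The 10 members above background in every stage were the ligands Cxcl12, Cxcl14, Cxcl17, Ccl7 and Ccl11 and the receptors Cxcr3, Cxcr4, Ccr7, Cx3cr1 and Ackr3. Of the 13 others, Ccl2, Cxcl16, Cx3cl1 and Cxcr2 passed the line in all 3 lesion stages but not in normal mucosa. Each of them passed it on 11 arrays and missed it in normal 1 alone, whose line was the highest (6.64, against 6.13 to 6.43 elsewhere). Cxcr2 in normal 1, at 6.56, lay above its lesion median of 6.54. Ccl22, Ccr2, Cxcr6 and Xcl1 passed the line in dysplasia alone, and Ccr9 in tumor alone. Cxcl1 passed it in hyperplasia and tumor, and Ccl25 in hyperplasia and dysplasia. Ccl4 missed it in hyperplasia and Ccl19 in dysplasia. Of the 32 members above background in no stage, 16 passed the line on at least 1 array and 16 on none.

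Differences between stages were tested with limma in 1 fit over all 12 samples, with Benjamini-Hochberg adjustment over all 24477 genes and a call at an adjusted p under 0.05. 2 members rose and none fell in any of the 6 comparisons. Ccl2, the main monocyte attractant of the CCR2 axis, rose in tumor, and Cxcl16, the ligand of CXCR6, rose in dysplasia. Both also rose in the mean of the 3 lesion stages over normal mucosa.

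**Figure D1:**
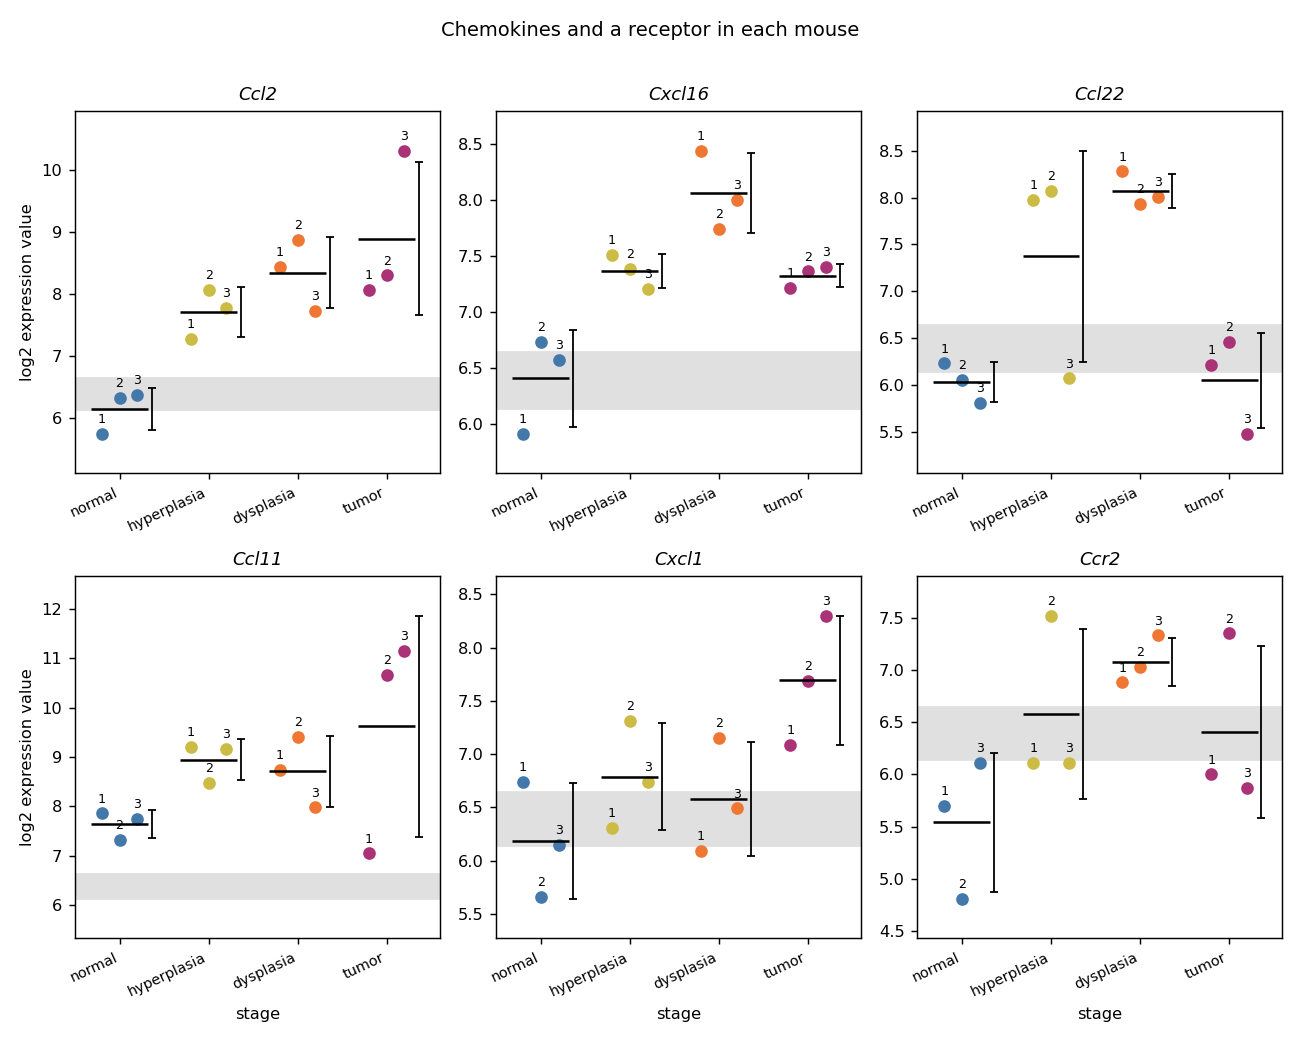
Log2 expression value (y axis) of 5 ligands and 1 receptor in each mouse by stage (x axis). Points are single mice with their replicate number, the horizontal line is the mean, the bar is 1 SD over 3 mice, and the grey band spans the background line over the 12 arrays. Ccl2 and Cxcl16 in the 9 treated mice lie above all 3 normal mice, whereas Ccl22 is back at the normal level in tumor.

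Among genes that attract monocytes and macrophages, Ccl2 had the largest difference between tumor and normal mucosa. Its values were 5.75, 6.32 and 6.37 in normal mucosa, 7.28, 8.07 and 7.77 in hyperplasia, 8.43, 8.87 and 7.73 in dysplasia, and 8.06, 8.30 and 10.31 in tumor. All 9 lesions lay above all 3 normal samples, which sat near the background line with normal 2 and normal 3 just over it and normal 1 under it, and tumor 3 was the highest. Tumor exceeded normal mucosa by 2.74 (SE 0.50), a 6.70-fold difference with an adjusted p of 0.0193. The mean of all lesions exceeded it by 2.17 (SE 0.41, adjusted p = 0.0204). The differences of dysplasia, 2.20 (SE 0.50, adjusted p = 0.0701), and of hyperplasia, 1.56 (adjusted p = 0.330), did not pass the threshold. The tumor call was lost without normal 1 (2.55, adjusted p = 0.0808), without normal 2 (2.83, adjusted p = 0.0574) or with the RNA integrity number as a covariate (2.58, adjusted p = 0.206). The call over all lesions was lost without any 1 normal mouse (adjusted p = 0.127 without normal 1, 0.0771 without normal 2 and 0.0572 without normal 3) and with that covariate (adjusted p = 0.117). Within the 1 preparation day that held both stages, tumor 1 exceeded normal 2 by 1.74.

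CCR2, the receptor that carries monocytes toward Ccl2, had a gene level that was high in some lesions and low in others. Ccr2 was 5.70, 4.81 and 6.11 in normal mucosa, 6.11, 7.52 and 6.11 in hyperplasia, 6.88, 7.03 and 7.33 in dysplasia, and 6.0, 7.35 and 5.87 in tumor. The 3 dysplasia samples lay above all normal samples, and hyperplasia 2 and tumor 2 stood with them. The difference of dysplasia from normal mucosa was 1.54 (SE 0.47, adjusted p = 0.184) and that of all lesions was 1.15 (SE 0.38, adjusted p = 0.158). Macrophage and monocyte markers averaged 6.02 to 6.23 in normal mucosa, 6.34 to 6.60 in hyperplasia, 6.78 to 7.24 in dysplasia and 6.50 to 6.93 in tumor, with no overlap between normal mucosa and lesions. Of 10 measured markers, 5 were above background in some stage, and 2 rose in tumor against normal mucosa and in all lesions. They were C1qc, a complement subunit made by macrophages (1.66 in tumor, adjusted p = 0.0129), and Ly6c2, a marker of inflammatory monocytes (1.66, adjusted p = 0.0413). C1qc, at 4.23 to 6.55 over the samples, was itself above background in no stage. The median marker differed by 0.47 between tumor and normal mucosa, while Mrc1 (-0.29), Csf1r (-0.13) and Adgre1 (-0.04) were lower. The part of these markers in the Ccl2 difference was not tested.

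The other CCR2 ligands did not pass the test. Ccl7, the neighbour of Ccl2, was 6.80, 6.77 and 6.82 in normal mucosa and ran from 6.29 in dysplasia 3 to 8.44 in tumor 3 among lesions, with a median of 7.13. Tumor 3 was thus the highest sample for both neighbours, but the Ccl7 difference between tumor and normal mucosa, 0.62 (SE 0.42), had an adjusted p of 0.494 and was 0.11 without tumor 3. Ccl12 was on no array above background and ran from 3.78 to 5.84 among lesions, with all 3 tumors above all normal samples (0.88, adjusted p = 0.239).

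The remaining members of the macrophage group did not pass the test. Cxcl14, a chemokine of resting epithelium, was 8.71, 9.34 and 8.68 in normal mucosa, 7.48, 8.41 and 8.99 in hyperplasia, 8.40, 7.87 and 9.75 in dysplasia, and 7.72, 7.42 and 9.28 in tumor. Of the 9 lesions, 6 lay below all normal samples and dysplasia 3 above them, and the tumor difference was -0.77 (adjusted p = 0.518) and -1.34 without tumor 3. Cxcl17, a mucosal chemokine, ran from 6.58 to 7.36 in normal mucosa and from 6.72 to 7.35 in lesions, so the groups overlapped fully. Cx3cr1, the receptor of resident macrophages, ran from 7.02 to 7.43 in normal mucosa and from 6.72 to 7.39 in lesions. Its tumor values (6.76, 6.96 and 6.97) lay below all normal samples, with a difference of -0.35 (adjusted p = 0.403). The membrane-bound ligand of Cx3cr1, Cx3cl1, ran from 6.44 to 7.15 in normal mucosa and from 6.51 to 7.51 in lesions. Ccl4, a macrophage chemokine, was 6.99, 6.76 and 7.11 in normal mucosa, 6.26, 6.70 and 6.75 in hyperplasia, 7.22, 7.35 and 7.0 in dysplasia, and 6.65, 6.52 and 7.18 in tumor. Hyperplasia lay below both normal mucosa and dysplasia for Ccl4, with differences of -0.38 and 0.62 whose adjusted p were 0.617 and 1.0. The 14 members of the group had a median difference between tumor and normal mucosa of 0.07, against -0.05 over all genes.

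**Figure D2:**
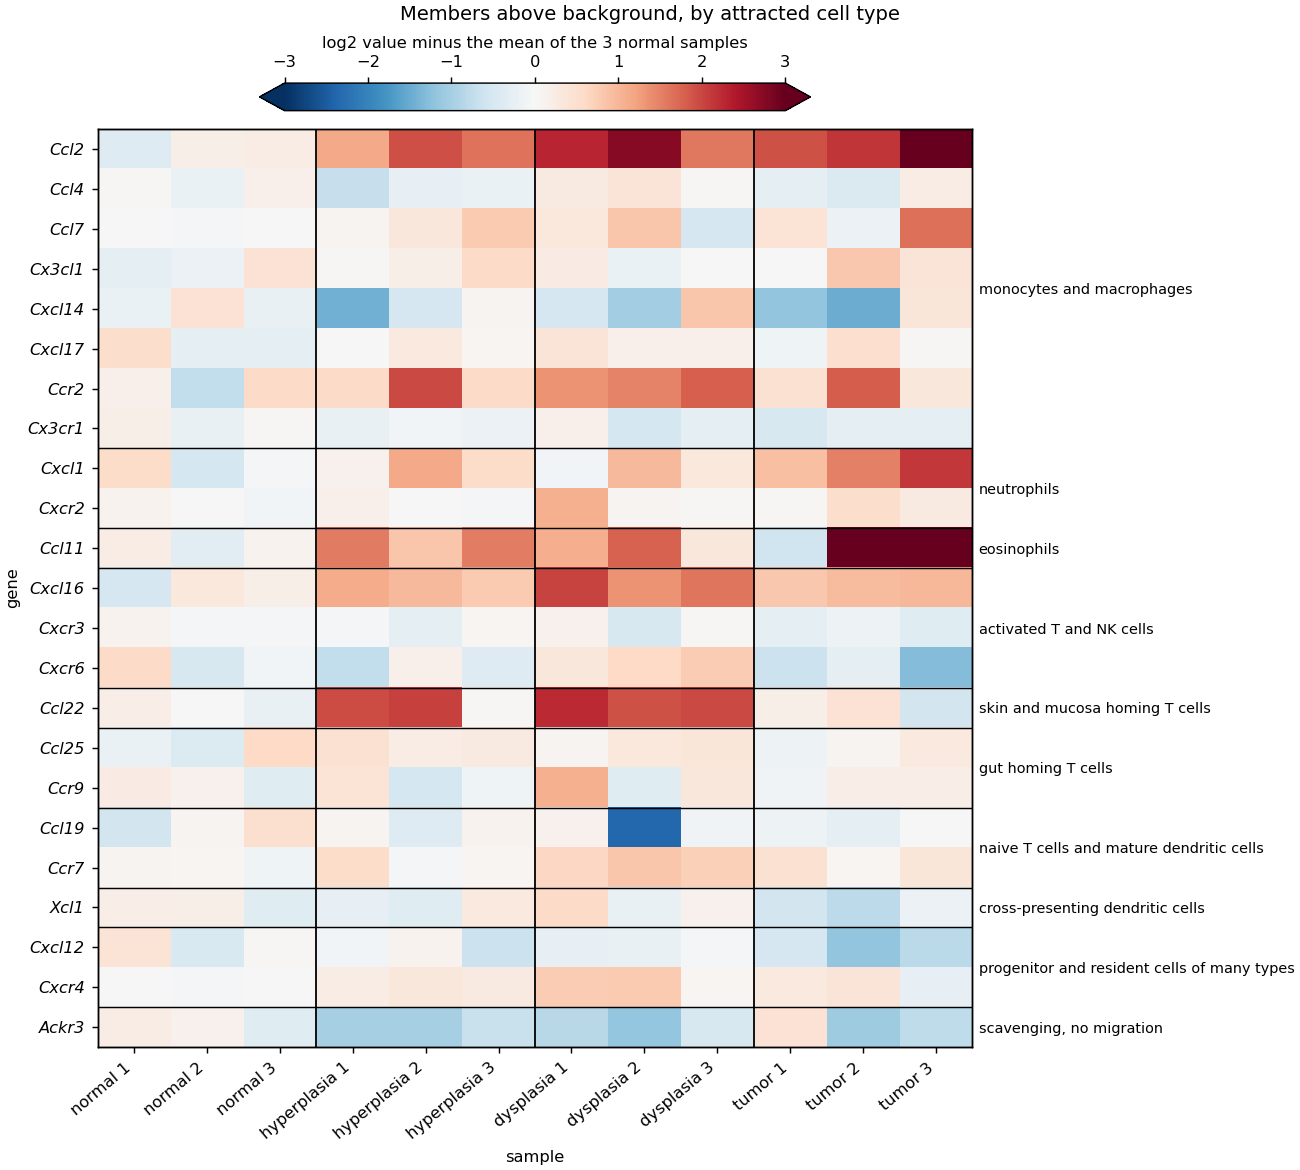
Colour map of the 23 members above background in at least 1 stage (rows, grouped by the cell type they attract) in the 12 samples (columns). The colour is the log2 value minus the mean of the 3 normal samples, cut at 3 in each direction. Ccl2 and Cxcl16 are red in all 9 lesions, and Ccl22 is red in dysplasia but not in the 3 tumors.

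Among the neutrophil chemokines Cxcl1, a CXCR2 ligand that keratinocytes can make, had the largest tumor difference. Cxcl1 was 6.74, 5.66 and 6.15 in normal mucosa, 6.31, 7.31 and 6.74 in hyperplasia, 6.09, 7.15 and 6.49 in dysplasia, and 7.09, 7.69 and 8.30 in tumor. The 3 tumors lay above all normal samples, but hyperplasia and dysplasia overlapped with normal mucosa. The tumor difference was 1.51 (SE 0.39, a 2.85-fold difference) with an adjusted p of 0.0710. It passed the threshold in 1 of 21 alternatives, at an adjusted p of 0.0489, when the 30% dimmest probe sets were left out. In the others its adjusted p reached 0.298. Cxcl2, the next gene on the chromosome and also a CXCR2 ligand, was 5.80 in tumor 3 and at most 4.00 in the other 11 samples, all under the background line. Tumor 3 was the highest of the 12 samples for Cxcl1, Cxcl2 and Cxcl3, as it was for Ccl2. For Cxcl3 the gap was small, at 4.52 against 4.36 in hyperplasia 1. Cxcl15 and Cxcl5, which lie in the same run of neighbours, did not share this peak. Cxcl15 was at its lowest in tumor 3 (3.41), and Cxcl5 was highest in dysplasia 2 (5.24). Cxcl3, Cxcl5, Cxcl15 and Cxcr1 were above background on no array.

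Cxcr2, the main neutrophil receptor, was 6.56, 6.43 and 6.37 in normal mucosa and 6.39 to 7.53 in lesions, where dysplasia 1 was the highest and the median was 6.54. The groups overlapped, and the tumor difference was 0.28 (adjusted p = 0.630). Of 10 measured neutrophil markers none was called in any comparison, 1 was above background in some stage and 6 were on no array. Their mean was 5.36 to 5.62 in normal mucosa and 5.19 to 5.62 in tumor.

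The regions before Cxcl1 and Cxcl2 are shown because these neighbours were highest in the same sample, although Cxcl2 lay under the background line on every array. Each line gives the 250 bases before the RefSeq transcription start on build GRCm38.p6, 5′ to 3′ on the gene's own strand, which is the plus strand for both (chr5:90890995-90891244 for Cxcl1 and chr5:90903649-90903898 for Cxcl2). Capitals mark matches to the kappaB motif, searched on both strands as GGG, any 2 bases and TTTCC.
Cxcl1: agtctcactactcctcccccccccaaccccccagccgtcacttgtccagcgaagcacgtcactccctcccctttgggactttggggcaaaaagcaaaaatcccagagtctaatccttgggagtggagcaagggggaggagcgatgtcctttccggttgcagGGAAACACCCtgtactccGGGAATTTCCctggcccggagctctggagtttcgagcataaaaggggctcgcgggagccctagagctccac
Cxcl2: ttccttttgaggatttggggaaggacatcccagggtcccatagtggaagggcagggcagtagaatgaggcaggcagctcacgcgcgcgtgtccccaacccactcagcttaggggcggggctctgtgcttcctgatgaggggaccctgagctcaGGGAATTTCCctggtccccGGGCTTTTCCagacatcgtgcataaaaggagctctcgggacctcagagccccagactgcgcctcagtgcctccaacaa
Both regions held 2 matches, beginning 89 and 71 bases before the start in Cxcl1 and 97 and 78 bases before it in Cxcl2, and no 2 matches overlapped. Counting the 300 bases from 250 before to 50 after the start, 1.63% of 32851 RefSeq promoters held this motif. Some genes have several promoters, and by gene the share was 1.89% of 27025. Among the 41 member genes with a listed promoter 6 held it, namely Cxcl1, Cxcl2, Cxcl3, Ccl20, Ccl9 and Ccr3. A match describes the letters only, and binding was not measured.

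Ccl11, or eotaxin, the CCR3 ligand that draws eosinophils, was above background in every sample and had the widest range of the ligands in tumor after Cxcl9. Its values were 7.86, 7.32 and 7.74 in normal mucosa, 9.20, 8.47 and 9.17 in hyperplasia, 8.74, 9.41 and 7.98 in dysplasia, and 7.05, 10.66 and 11.15 in tumor. Of the 9 lesions, 8 lay above all normal samples, while tumor 1 lay below all of them. The tumor difference was 1.98 (SE 0.81) with an adjusted p of 0.237. Without tumor 1 it was 3.27 (SE 0.39, adjusted p = 0.0129), and that of all lesions was 1.88 (adjusted p = 0.0131) in place of 1.45 (adjusted p = 0.296). Ccl24 and Ccl26, the other eotaxins, and the receptor Ccr3 were above background in no stage, and none of the 4 eosinophil markers measured was called or above background in any stage.

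Cxcl16, which exists as a membrane protein and as a shed ligand for CXCR6 on T and NK cells, rose in dysplasia. Its values were 5.91, 6.73 and 6.57 in normal mucosa, 7.51, 7.38 and 7.20 in hyperplasia, 8.44, 7.74 and 8.00 in dysplasia, and 7.21, 7.36 and 7.40 in tumor. All 9 lesions lay above all normal samples, and the 3 dysplasia samples lay above the 6 other lesions. Dysplasia exceeded normal mucosa by 1.66 (SE 0.24), a 3.15-fold difference with an adjusted p of 0.0113, and all lesions exceeded it by 1.18 (SE 0.20, adjusted p = 0.0109). Hyperplasia (0.96, adjusted p = 0.212) and tumor (0.92, adjusted p = 0.0747) were nearly level with each other. The step from dysplasia to tumor, -0.74, had an adjusted p of 0.734. The dysplasia call was lost without normal 1 (1.41, adjusted p = 0.0565) and in a fit of the 2 stages alone (adjusted p = 0.0679), and the call over all lesions was lost without normal 1 (0.93, adjusted p = 0.0657) and with the RNA integrity number as a covariate (1.15, adjusted p = 0.0695).

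Cxcr6, the receptor of Cxcl16, was 6.71, 5.64 and 6.04 in normal mucosa, 5.38, 6.29 and 5.74 in hyperplasia, 6.47, 6.72 and 6.89 in dysplasia, and 5.48, 5.87 and 4.82 in tumor. Dysplasia lay above hyperplasia and tumor but overlapped with normal mucosa. The difference of dysplasia from hyperplasia was 0.89 (adjusted p = 1.0) and that of tumor from dysplasia was -1.30 (SE 0.33, adjusted p = 0.644). T and NK cell markers had their highest values in dysplasia. Their mean was 6.95, 6.17 and 6.04 there and 5.50 to 5.87 in the other 9 samples. Within dysplasia the order of the 3 mice was the reverse of that for Cxcr6. The median marker differed by 0.43 between dysplasia and normal mucosa, while Gzmb (-0.02), Gzma (-0.13) and Klrb1c (-0.22) were lower. Of 14 measured markers, 6 were above background in some stage, and Cd3d and Cd3g, both chains of the T cell receptor complex, rose in dysplasia against normal mucosa (2.94, adjusted p = 0.0259, and 2.95, adjusted p = 0.00249). Cd3g also fell by 2.76 from dysplasia to tumor (adjusted p = 0.0456), and the part of these markers in the chemokine values was not tested.

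The CXCR3 ligands Cxcl9, Cxcl10 and Cxcl11, which interferon induces and which draw activated T and NK cells, varied widely between the mice of dysplasia and of tumor. Cxcl9 was 4.94, 5.29 and 4.12 in normal mucosa, 6.92, 4.56 and 7.19 in hyperplasia, 11.81, 7.73 and 4.69 in dysplasia, and 9.46, 5.97 and 4.11 in tumor. Cxcl10 was 5.75, 6.18 and 5.71 in normal mucosa, 6.0, 5.54 and 6.20 in hyperplasia, 9.00, 7.14 and 5.67 in dysplasia, and 7.03, 6.13 and 5.63 in tumor. For all 3 genes dysplasia 1 was the highest of the 12 samples and dysplasia 3 lay within or near the normal range. Cxcl11 reached 9.55, 7.12 and 5.38 in dysplasia and 6.67, 5.48 and 5.70 in tumor, against 5.19 to 5.58 in normal mucosa. Dysplasia exceeded normal mucosa by 3.30 (SE 1.58) for Cxcl9, 1.39 (SE 0.63) for Cxcl10 and 1.95 (SE 0.74) for Cxcl11, with adjusted p of 0.425, 0.401 and 0.305. Without dysplasia 1 these differences were 1.43, 0.53 and 0.85.

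**Figure D3:**
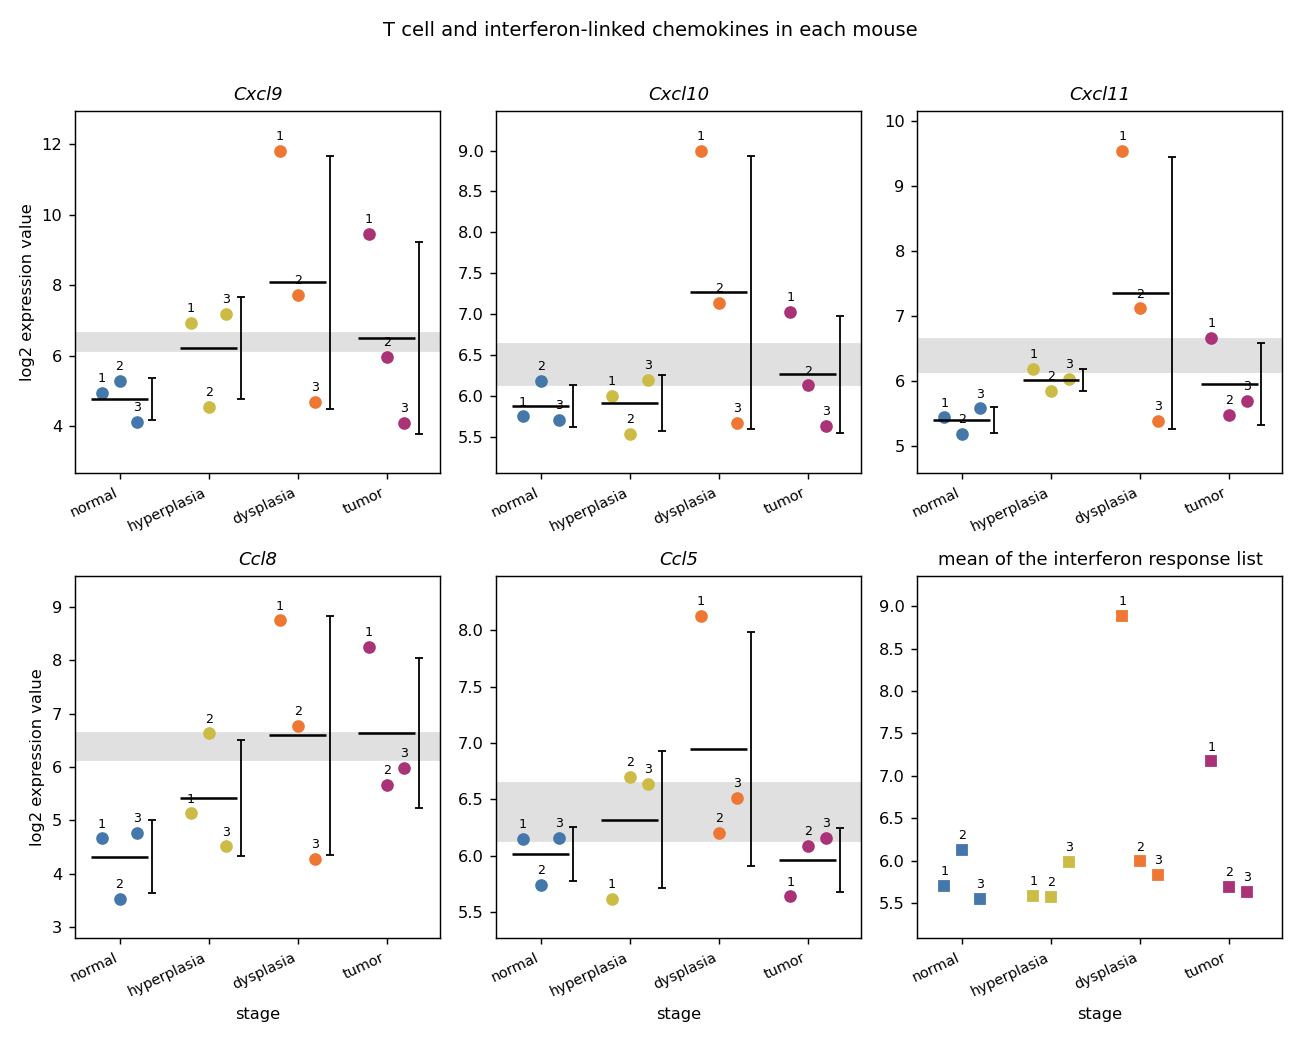
Log2 expression value (y axis) of Cxcl9, Cxcl10, Cxcl11, Ccl8 and Ccl5 in each mouse by stage (x axis), with the mean of 24 interferon response genes in the last panel. Circles are single mice with their replicate number, the line is the mean, the bar is 1 SD over 3 mice, the grey band spans the background line, and squares are list means. Dysplasia 1 is the highest sample in all 6 panels.

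Dysplasia 1 and tumor 1 also stood out in genes of the interferon response. The mean of 24 measured genes of this list was 8.89 in dysplasia 1, 7.17 in tumor 1 and 5.55 to 6.13 in the 10 other samples. None of the 24 was called in tumor against normal mucosa or in all lesions, and the largest tumor difference was that of Irgm1, an interferon-induced GTPase (1.23, adjusted p = 0.525). Ifng, which encodes interferon gamma, lay between 4.71 and 5.67 in all samples. The receptor Cxcr3 ran from 7.40 to 7.58 in normal mucosa and from 7.0 to 7.61 in lesions. Its tumor values (7.18, 7.32 and 7.11) lay below all normal samples, with a difference of -0.26 (adjusted p = 0.528). The part of the interferon pattern in the chemokine differences was not tested.

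Ccl8, a ligand that in mice acts on CCR8, followed the same mice. It was 4.66, 3.53 and 4.77 in normal mucosa, 5.13, 6.63 and 4.51 in hyperplasia, 8.75, 6.77 and 4.27 in dysplasia, and 8.26, 5.67 and 5.99 in tumor. Dysplasia 1 and tumor 1 were the highest, all 3 tumors lay above all normal samples, and the tumor difference was 2.32 (SE 0.98, adjusted p = 0.257) and 1.51 without tumor 1. Ccl5, a T cell and monocyte attractant, was 8.13 in dysplasia 1 and at most 6.70 in every other sample, and Cxcl13, which draws B cells through CXCR5, was 8.44 in tumor 1 and at most 6.94 elsewhere. Without tumor 1 the tumor difference of Cxcl13 was -0.19 in place of 0.62.

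The region before Cxcl10 is shown because this ligand peaked in dysplasia 1 together with the interferon response genes. It comprises the 250 bases before the RefSeq start on GRCm38.p6, on the minus strand, 5′ to 3′ (chr5:92348890-92349139), and capitals mark the match to the interferon-stimulated response element, searched on both strands as GAAA, any 2 bases and GAAA.
Cxcl10: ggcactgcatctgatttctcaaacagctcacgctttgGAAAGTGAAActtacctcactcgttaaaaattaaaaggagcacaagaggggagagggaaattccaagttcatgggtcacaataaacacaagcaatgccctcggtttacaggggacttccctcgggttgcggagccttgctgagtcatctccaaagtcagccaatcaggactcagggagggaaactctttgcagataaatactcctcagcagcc
The match began 213 bases before the start. In the 300-base windows the motif was found in 3.44% of all RefSeq promoters, or 3.99% of their genes. It was found in 3 of the 41 member genes with a listed promoter, Cxcl10, Cxcl14 and Ccl19. The gamma-activated site, searched as TTC, any 3 bases and GAA, was found in 8.3% of promoters, or 9.55% of their genes. The members with it were Ccl17, Ccr6 and Cxcl14. The window of Cxcl9 held none of the 3 motifs.

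Ccl22, made by dendritic cells and macrophages and read by CCR4 on mucosa-homing and regulatory T cells, was high before the tumor stage and not in it. Its values were 6.23, 6.05 and 5.81 in normal mucosa, 7.98, 8.07 and 6.07 in hyperplasia, 8.28, 7.93 and 8.01 in dysplasia, and 6.21, 6.46 and 5.48 in tumor. All 3 dysplasia samples and 2 of the 3 hyperplasia samples lay above every normal and tumor sample, while hyperplasia 3 lay within the normal range. The difference of dysplasia from normal mucosa was 2.04 (SE 0.44, a 4.12-fold difference) with an adjusted p of 0.0559. It passed the threshold in only 6 of 21 alternatives, and its adjusted p reached 0.19 in the others. Among these 6 were the fits without hyperplasia 3 (adjusted p = 0.00662), without hyperplasia 2 (adjusted p = 0.0495) and of the 2 stages alone (adjusted p = 0.00789). Also among them were an intensity trend (adjusted p = 0.0491), the replicate number as a block (adjusted p = 0.0346) and omission of the 30% dimmest probe sets (adjusted p = 0.0393). The difference itself stayed at 2.04 in all 6. The difference of tumor from dysplasia was -2.02 (SE 0.44) with an unadjusted p of 0.000623 and an adjusted p of 0.545.

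Ccl17, the other CCR4 ligand and a neighbour of Ccl22, was 5.65, 6.23 and 5.97 in normal mucosa, 5.93, 6.34 and 5.24 in hyperplasia, 5.58, 6.85 and 7.16 in dysplasia, and 5.24, 5.12 and 5.15 in tumor. All 3 tumors lay below all normal and dysplasia samples, with a difference from dysplasia of -1.36 (adjusted p = 0.663). Langerhans and dendritic cell markers averaged 6.25 to 6.37 in normal mucosa, 6.21 to 6.84 in hyperplasia, 7.32, 6.60 and 6.84 in dysplasia, and 6.14 to 6.38 in tumor. The median marker differed by 0.67 between dysplasia and normal mucosa, while Zbtb46 (-0.30) was lower. None of the 8 was called, and their part in the Ccl22 values was not tested. The receptors Ccr4, Ccr8 and Ccr10 were above background in no stage.

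Ccl28, an epithelial ligand of CCR10, was 6.41, 6.31 and 6.07 in normal mucosa, 5.61, 5.65 and 5.55 in hyperplasia, 6.23, 6.07 and 5.78 in dysplasia, and 5.98, 5.88 and 5.79 in tumor. It passed the background line on 1 array, and hyperplasia and tumor lay below all normal samples. The hyperplasia difference was -0.65 (SE 0.17, adjusted p = 0.242).

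The receptor Ccr7, which takes mature dendritic cells and naive T cells to lymph nodes, was highest in dysplasia. Its values were 6.88, 6.85 and 6.66 in normal mucosa, 7.34, 6.76 and 6.85 in hyperplasia, 7.41, 7.64 and 7.50 in dysplasia, and 7.26, 6.86 and 7.16 in tumor. The 3 dysplasia samples lay above the 9 others, with a difference from normal mucosa of 0.72 (SE 0.20, adjusted p = 0.131). Its ligand Ccl19 was 4.91 in dysplasia 2 and 6.71 to 7.73 in the other 11 samples. Ccl19 has near-identical copies in the mouse genome, so its value is uncertain.

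The XCR1 ligand Xcl1, which draws cross-presenting dendritic cells, was 7.12, 6.33 and 6.68 in dysplasia and 6.01, 5.77 and 6.39 in tumor, a difference of -0.66 (adjusted p = 0.780). Ccl25 and Ccr9, the pair that directs T cells to the gut, differed between tumor and normal mucosa by 0.07 and 0.10, and both overlapped between these stages. Ccl20 and its receptor Ccr6, which serve immature dendritic cells and Th17 cells, were above background in no stage. Ccl20 was highest in tumor 3, at 7.31, against 5.98 to 6.60 in normal mucosa.

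Cxcl12, a stromal ligand of CXCR4 and ACKR3, was 7.85, 6.98 and 7.47 in normal mucosa, 7.35, 7.55 and 6.80 in hyperplasia, 7.19, 7.21 and 7.37 in dysplasia, and 6.94, 6.25 and 6.63 in tumor. All 3 tumors lay below all normal and dysplasia samples, and the tumor difference was -0.83 (SE 0.27, adjusted p = 0.136). Fibroblast markers averaged 7.49 to 7.83 in normal mucosa and 6.66 to 7.10 in tumor, without overlap, and 1 of 7, Dcn (decorin, a matrix protein), fell by 3.06 in tumor (adjusted p = 0.0243). The 7 markers had a median tumor difference of -0.53, with Col1a1 (0.22) and Pdgfrb (0.37) higher than in normal mucosa. In dysplasia the markers averaged 6.17, 7.30 and 6.90, and Dcn fell by 3.29 (adjusted p = 0.0284), whereas Cxcl12 differed by -0.18. The part of the fibroblast markers in the Cxcl12 values was not tested.

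Both receptors of Cxcl12 were above background in all samples. Cxcr4, which signals, was 7.59, 7.55 and 7.60 in normal mucosa and 7.80, 7.92 and 7.85 in hyperplasia, 8.34, 8.36 and 7.65 in dysplasia and 7.88, 7.96 and 7.34 in tumor. In 8 of 9 lesions it lay above all normal samples, with a difference over all lesions of 0.32 (SE 0.18, adjusted p = 0.423). Ackr3, which clears Cxcl12, was 9.57, 9.47 and 8.97 in normal mucosa, 8.33, 8.33 and 8.66 in hyperplasia, 8.50, 8.18 and 8.85 in dysplasia, and 9.78, 8.26 and 8.57 in tumor. In 8 of 9 lesions it lay below all normal samples and in tumor 1 above them, and the difference over all lesions was -0.73 (SE 0.28, adjusted p = 0.221). Ackr1, Ackr2 and Ackr4 were above background in no stage.

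**Figure D4:**
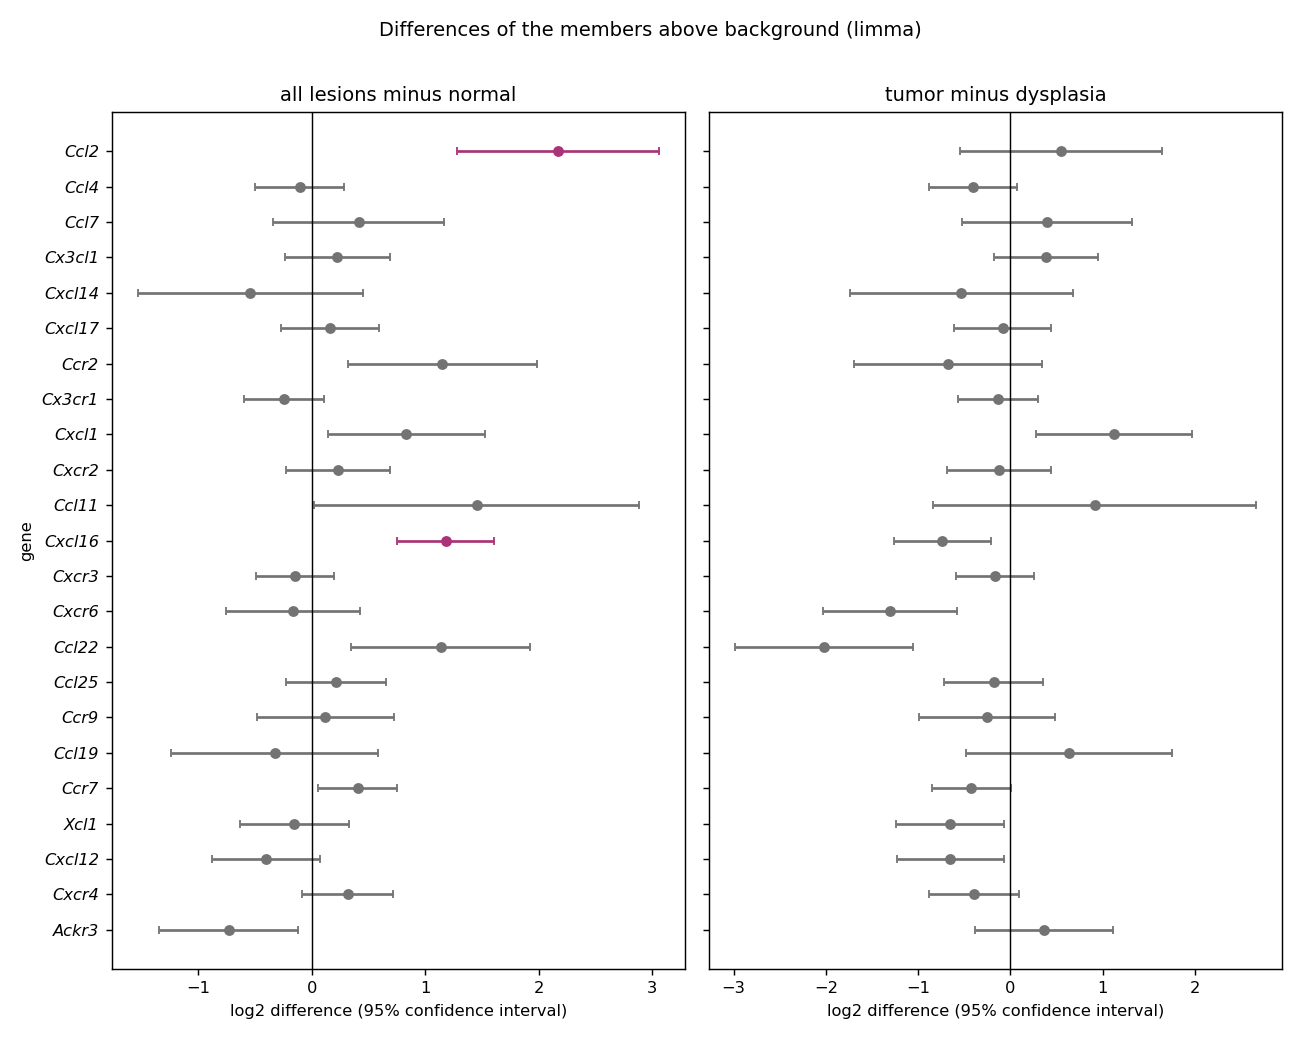
Log2 difference (x axis) of the 23 members above background (y axis), for all lesions minus normal mucosa and for tumor minus dysplasia. Points are limma estimates, bars are 95% confidence intervals without adjustment over genes, and purple marks an adjusted p under 0.05. Ccl2 and Cxcl16 are the 2 purple points, and in tumor minus dysplasia most points lie left of 0.

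In tumor against normal mucosa, 1 of 55 members was called higher and none lower, where 0.744% and 1.23% of all genes were. A difference over 1 was reached by 5 members, Ccl2, Ccl8, Ccl11, Cxcl9 and Cxcl1, and by 2.4% of all genes, and none of the members but 3.09% of all genes lay under -1. The 2 groups did not overlap for 5 members that were higher and 6 that were lower, against 10.3% and 13.0% of all genes. Unadjusted p under 0.05 was found for 9 members (16.4%) and 16.9% of all genes, and the median member differed by 0.03 against -0.05 over all genes.

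In dysplasia against normal mucosa, 1 member was called higher and none lower, against 0.261% and 0.503% of all genes. The groups did not overlap for 8 members that were higher (Ccl2, Ccl5, Ccl11, Ccl22, Cxcl16, Ccr2, Ccr7 and Cxcr4) and 1 that was lower (Ackr3), against 7.28% and 8.7% of all genes. The median member differed by 0.22 and the median gene by -0.02. In all lesions against normal mucosa, 2 members were called higher and none lower, against 0.788% and 1.23% of all genes. The same 2 were the only members whose 9 lesions lay above the 3 normal samples, against 1.97% of all genes, and none lay below, against 2.89%.

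In hyperplasia against normal mucosa limma called no member and 0.0654% of all genes, with 6 members (10.9%) and 9.76% of all genes at an unadjusted p under 0.05. Groups did not overlap for 9 members that were higher and 4 that were lower, against 7.08% and 8.96% of all genes. In dysplasia against hyperplasia limma called no member and no gene (0.0%), with 7 members (12.7%) and 4.54% of all genes at an unadjusted p under 0.05, and 6 members were higher without overlap and none lower, against 5.07% and 3.71%. In tumor against dysplasia limma called no member and 0.00409% of all genes, with 9 members (16.4%) and 6.34% of all genes at an unadjusted p under 0.05. There 10 members were lower without overlap (Ackr1, Ccl5, Ccl17, Ccl22, Ccr6, Ccr7, Ccr10, Cxcl12, Cxcl16 and Cxcr6) and none was higher, against 7.26% and 4.94% of all genes. The median member differed by -0.14 in that step, against -0.03 over all genes. The methods' t-test with Benjamini-Hochberg adjustment called no member in any comparison.

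Genes that lie upstream and downstream of chemokines were measured beside them. Of 17 cytokines that induce chemokines, 8 were above background in some stage and 1 passed the test. Il1b, which encodes the inflammatory cytokine interleukin 1 beta, rose in all lesions by 1.35 (adjusted p = 0.0432). It went from 4.91, 5.22 and 4.43 in normal mucosa to 5.32 to 6.92 in the 9 lesions, without overlap. Il1b was above background in no stage, and its closest values were 5.22 in normal 2 and 5.32 in dysplasia 2. Il17f, a cytokine of Th17 cells, reached 9.19 in dysplasia 2 against 6.17 to 6.47 in normal mucosa and did not pass the test. None of 15 receptors of these inducers, 24 signalling genes below chemokine receptors or 12 genes of ligand presentation and proteolysis was called in tumor against normal mucosa or in all lesions. Of 16 other chemoattractants and their receptors, Cmtm7, a member of the chemokine-like factor family, rose in tumor by 0.86 (adjusted p = 0.0255), and Cklf, the chemokine-like factor of the same family, rose in all lesions by 0.76 (adjusted p = 0.0371). Cmtm7 was 7.12, 7.10 and 7.08 in normal mucosa and 7.54 to 8.20 in the 9 lesions.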

How the data were processed

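Total RNA of laser-microdissected tongue epithelium (12 samples, 3 mice per stage) was amplified and hybridised, 1 array per mouse. The deposited log2 values were made by the authors with quantile normalization and RMA on 24479 probe sets, and the versions they used and the genome build behind the probe sets are not given in the sources used here. The platform annotation names 23281 probe sets with 1 symbol and 1198 with none, and for the 2 symbols with 2 probe sets the brighter one was kept, leaving 24477 genes. Stages were taken from the labels.

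The 4 stage means were fitted over 12 arrays in limma (version 3.58.1, run under R 4.3.3) with 8 residual degrees of freedom (prior degrees of freedom 4.22, prior SD 0.296). P-values were adjusted by Benjamini-Hochberg over all genes, and every adjusted p is from this fit unless another setting is named. With 3 mice against 3 an exact permutation test cannot go below p = 0.1, so none was used for single genes.

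The 55 members and the 17 marker and pathway lists were chosen with earlier results of these data known, as were the motifs. Named in the text were members called or above background, members at background that differ between mice, and for some lists called genes or large differences. Cdh5 of the endothelial list was called by limma in tumor against normal mucosa (1.33, adjusted p = 0.0294) and in all lesions (1.09, adjusted p = 0.0303). Of the keratinocyte list, Krt4 (-2.97, adjusted p = 0.0286) and Dsg3 (1.29, adjusted p = 0.0388) were called in tumor. The endothelial and mast cell lists were not described further. Members at background (Ccl8, Cxcl9, Cxcl10, Cxcl11, Ccl5, Cxcl13, Cxcl2, Ccl17, Ccl28, Ccl20) and list genes outside these rules (Ifng, Il17f) were singled out after their values were seen. Precision is limited by the 3 mice per stage and by how far a signal lies over background. RefSeq annotation and promoters are from GRCm38.p6, with all 55 members matched by Entrez number and 41 with a listed promoter. Python 3.11.15 with pandas 2.3.3, numpy 2.4.6 and matplotlib 3.10.9 was used for the summaries.

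Alternatives were renewed quantile normalization, omission of the 30% dimmest probe sets, the mean of probe sets, an intensity trend, a random block for preparation day, a covariate for the RNA integrity number, a block for the replicate number, the compared stages fitted alone, the methods' t-test, other background lines and each mouse left out. The integrity numbers and days come from the study's sample table, and 2 of 8 preparation days held more than 1 stage.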

Additional observations from a re-analysis of the deposited data

Results flagged for a closer look

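Among the 9 treated mice, 1 sample stood far from the others for 9 of the 55 members, by a gap to the next sample that exceeded Dixon's 95% limit for 9 samples. Chance alone gives such a gap in about 1 in 20 groups of 9 normally distributed values, whereas these 9 mice come from 3 stages. The share over all genes was not counted, so the 9 members cannot be read as an excess among chemokine genes. The 3 high values of dysplasia 1 were Ccl5 at 8.13 (next 6.70), Cxcl10 at 9.00 (next 7.14) and Cxcl11 at 9.55 (next 7.12). Tumor 1 was high for Cxcl13 at 8.44 (next 6.94) and for Ackr3 at 9.78 (next 8.85). Tumor 3 was high for Cxcl2 at 5.80 (next 4.00), which is still under the background line of that array. Dysplasia 2 was low for Ccl19 at 4.91 (next 6.88) and high for Ccr6 at 6.94 (next 6.27). Hyperplasia 2 was high for Ccl24 at 6.63 (next 6.28). These lesions hold 3 stages, so the flags rest on single mice and were not tested further.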

How the results depend on the processing

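Over 61 differences of members and 1267 alternatives, 1240 kept their direction and their side of the threshold, 13 lost a call, 13 gained one and 1 changed sign, and the causes were not tested. Most of the 61 were not called in the main fit, and all 13 lost calls were of Ccl2 or Cxcl16. The Ccl2 call was kept in 17 of 21 alternatives in tumor minus normal and in 15 of 20 in all lesions minus normal. That of Cxcl16 was kept in 19 of 21 in dysplasia minus normal and in 18 of 20 in all lesions minus normal. The sign change was Cxcl13 in tumor minus normal, whose difference without 1 mouse ranged from -0.19 (without tumor 1) to 1.04 (without tumor 2). Without 1 mouse the number of members called ranged from 0 to 2 in tumor minus normal, from 0 to 2 in dysplasia minus normal and from 0 to 3 in all lesions minus normal, with none called without normal 1, and it was 0 throughout in the 3 other comparisons. In tumor minus normal the count was 1 (483 of all genes), against 2 (694 genes) without the 30% dimmest probe sets and 0 (17 genes) with the RNA integrity number as a covariate. In dysplasia minus normal it was 1 (187 genes), against 3 (277 genes) without the dimmest probe sets, 2 (257 genes) with an intensity trend, 2 (111 genes) in a fit of the 2 stages alone and 2 (132 genes) with the replicate number as a block. In all lesions minus normal it was 2 (494 genes), against 0 (101 genes) with the integrity number. Leaving out normal 1 and dysplasia 1 together, an alternative chosen after seeing the data, gave 0 (332 genes) in tumor minus normal and 1 (263 genes) in all lesions minus normal. The replicate block changed no other count of members, and same-numbered mice of different stages did not deviate together (18 pairs, r from -0.11 to 0.11, median 0.0097), so the numbers do not pair the mice. The methods' t-test without adjustment called 7 members (12.7%, against 14% of all genes) in tumor minus normal, 7 (12.7% against 8.5%) in hyperplasia minus normal, 6 (10.9% against 8.82%) in dysplasia minus normal, 5 (9.09% against 15.5%) in all lesions minus normal, 4 (7.27% against 3.98%) in dysplasia minus hyperplasia and 7 (12.7% against 5.69%) in tumor minus dysplasia, and after Benjamini-Hochberg 0 members in each. The 23 members above background became 35 with the 90th percentile or with 2 of 3 arrays, and 8 with the 99th percentile, without a count of all genes beside them.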
